A study of Homo sapiens with 12 samples.

Results

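Immediate early genes are switched on within minutes of a growth factor, stress or mechanical stimulus, from factors already present in the cell. The 46 genes examined here were listed by name and are the immediate early and closely related response genes other than the AP-1 genes of the FOS, JUN and ATF3 kind. They are the EGR, IER, DUSP, KLF, NR4A, ZFP36, SPRY and CCN genes with SRF, BTG1, TIPARP, SGK1, HES1, the ID genes, MAFF, MAFK, RHOB, PLK2, PHLDA1, CSRNP1 and GADD45B. Of the 46, 44 had a transcript matched to a gene, among 34318 genes in all, and ID3 and DUSP16 were not analysed here. IER3 was listed at 0 in every library on its 2 matched transcripts, while reads on transcripts that could not be matched to a gene were not counted for it. EGR4 had at most 2 reads in any library, and neither gene was tested. After the filter on low counts, 42 genes of the list were tested after the siRNA and 41 with ML60218, where SPRY4 was also below the filter.

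All samples were of the cell line HEK293T, which derives from human embryonic kidney and carries the SV40 large T antigen, and no genetic change beyond the line itself was labelled. In 1 experiment cells were transfected with siRNA directed against POLR3A (siPOLR3A), or with a control siRNA (siControl), and collected 2 days later. In the other they were treated with 0.1% DMSO, the vehicle, or with 25 µM ML60218, an inhibitor of RNA polymerase III (Pol III), and collected after 4 hours. Each of the 4 groups held 3 libraries of messenger RNA, and the study asked what happens to protein-coding transcripts when Pol III, the enzyme that makes transfer RNA and 5S ribosomal RNA, is reduced or blocked. The sources used here do not say whether the replicates were separate cultures, so p-values measure the spread between these libraries, which may be technical. The siRNA reduced POLR3A without removing it, and the agents, durations and controls of the experiments all differ.

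The libraries held between 37008325 and 49479476 estimated reads. POLR3A, the siRNA's target, was lower in siPOLR3A, with a log2 fold change (log2 change below) of −2.36 (SE 0.11, adjusted p 1.94e-05 in edgeR's quasi-likelihood test). Of 6 epithelial markers with a transcript, 4 stood at 1 TPM (a level per transcript length, scaled to the same total in every library) or more, led by KRT18. Of 6 fibroblast markers, 3 stood at that level in siControl and in DMSO. Their summed level was 31.4 to 33.3 TPM in siControl, beside 34.3 to 36.9 for the epithelial markers. In DMSO it was 23.4 to 24.1, beside 39.3 to 41.0. Nephron-lineage genes such as SIX2 and CITED1 were present, while UMOD, NPHS1, SLC12A1 and AQP1, markers of mature kidney cells, were at or near 0. The summed level of 4 endothelial markers lay between 0.220 and 0.511 TPM over the libraries. PTPRC, which marks blood cells, was at 0, while LYZ, a myeloid marker, had group means from 2.28 to 3.02 TPM. Of 5 immune markers, 2 stood at 1 TPM or more in every group. Their summed level was 5.41 to 6.11 TPM in siControl, 7.88 to 8.14 in siPOLR3A, 5.35 to 6.23 in DMSO and 6.22 to 6.86 with ML60218. Other marker lists differed between the groups. The sum of 12 nephron and kidney genes was 179 to 201 TPM in siControl, 237 to 246 in siPOLR3A, 266 to 310 in DMSO and 261 to 404 with ML60218. The sum of 6 neural markers, led by the neurofilament genes, was 168 to 192 TPM in siControl, 111 to 115 in siPOLR3A, 132 to 139 in DMSO and 154 to 169 with ML60218. The part of these differences in the results below was not tested.

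The genes of the list act at several points of the same response. SRF with its ETS-family partners binds CArG boxes, and CREB binds cyclic AMP response elements, to start transcription of early genes when kinases such as ERK or p38 are active. The EGR, KLF and NR4A genes encode transcription factors that relay the signal, DUSP and SPRY genes encode its negative feedback, and the ZFP36 proteins promote decay of the short-lived early mRNAs through AU-rich elements in their 3′ untranslated regions. BTG1 promotes deadenylation by binding the CCR4-NOT deadenylase. The CCN genes encode secreted matricellular proteins and are targets of YAP and TEAD, whereas the ID genes respond to BMP signalling and HES1 to Notch.

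The promoter sequences below are shown because they carry the sites through which early genes are classically started. They are 30-base windows read 5′ to 3′ on the gene's strand from RefSeq promoters on GRCh38.p14, and capitals mark a CArG box or the full cyclic AMP response element TGACGTCA. They come from 52 promoters of 37 of the 46 genes, since a gene can have several starts.
EGR1 (chr5:138465364-138465393, plus strand): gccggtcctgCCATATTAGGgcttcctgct
EGR1 (chr5:138465386-138465415, plus strand): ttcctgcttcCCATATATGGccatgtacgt
EGR2 (chr10:62816418-62816447, minus strand): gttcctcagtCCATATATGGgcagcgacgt
SRF (chr6:43171229-43171258, plus strand): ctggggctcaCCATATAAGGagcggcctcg
SRF (chr6:43171239-43171268, plus strand): ccatataaggagcggcctcgCCATAAAAGG
DUSP1 (chr5:172771302-172771331, minus strand): ggcagggcgggTGACGTCAccgccccgtca
KLF11 (chr2:10044034-10044063, plus strand): atttccagccaTGACGTCAccccggtcctg
ZFP36L1 (chr14:68793450-68793479, minus strand): agtggaatgagTGACGTCAcagccgcgctc
MAFF (chr22:38201929-38201958, plus strand): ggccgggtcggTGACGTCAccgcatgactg

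Within 250 bases before the start, on either strand, a CArG box was found in 3 of the 52 promoters (5.77%), those of EGR1, EGR2 and SRF, against 1.16% of 35116 promoters. TGACGTCA was found in 5 (9.62%), those of DUSP1, DUSP8, KLF11, MAFF and ZFP36L1, against 1.65% of all. The shorter TGACG, which lies within TGACGTCA, was in 22 (42.3%), against 21.2%. GGGCGG, the core that SP1 and KLF factors bind, was in 33 (63.5%), against 42.6%. TTCCGG, an ETS-type sequence, was in 8 (15.4%), near the 14.5% of all promoters. Genes with the same site differed in their calls. The CArG-box genes EGR1 and EGR2 were higher after the siRNA and SRF was lower. Of the 5 genes with TGACGTCA, KLF11 and ZFP36L1 were higher in both experiments, DUSP1 was higher with ML60218, and DUSP8 and MAFF passed the test in neither.

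More of the genes were higher than lower in both experiments. A gene was called at an adjusted p under 0.05 in edgeR's quasi-likelihood test, adjusted over all genes tested. After the siRNA 56.6% of all 15404 genes were called, and 20 of the 42 were higher (47.6%), against 27.4% of all, and 4 were lower (9.52%), against 29.2%. The median log2 change was 0.13, beside 0.01 over all genes. With ML60218 39% of all 15461 genes were called, and 21 of the 41 were higher (51.2%), against 18.1% of all, and 3 were lower (7.32%), against 20.9%, with a median of 0.26 beside 0.01. Every treated library lay above every control library for 21 genes after the siRNA (background 31.1%) and below for 6 (32.4%), and with ML60218 for 23 (24.8%) and 4 (27%). SPRY4, KLF2 and DUSP8 passed the filter on low counts only through the siPOLR3A libraries, and without them 18 of 39 were higher and 4 lower after the siRNA, with a median of 0.10. By 1.5-fold or more, 9 genes were called higher (7 without SPRY4 and KLF2) and 1 lower after the siRNA, where 5.97% and 6.78% of all genes passed. With ML60218 6 were called higher and 0 lower by that much, where 3.88% and 1.13% passed. In this bulk RNA, fewer cells making a transcript and less of it per cell cannot be told apart.

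**Figure D1:**
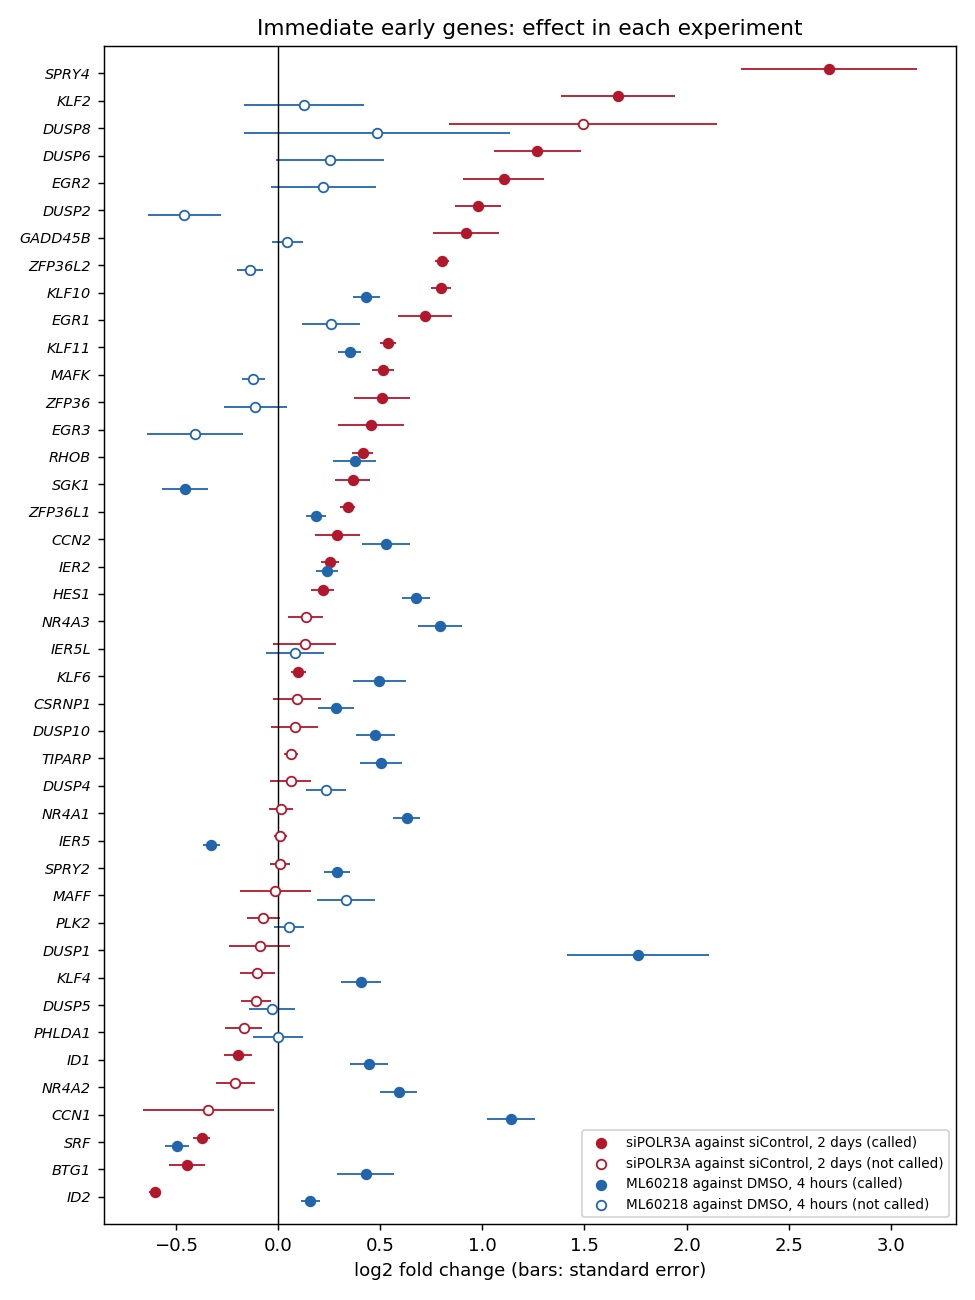
Log2 fold change of each tested gene (vertical axis, ordered by the siRNA effect) in the siRNA experiment (red) and with ML60218 (blue), with bars for the standard error and filled points for called genes. Among called siRNA effects SPRY4 (2.70) and KLF2 (1.66), which passed the filter only through siPOLR3A, are followed by DUSP6 (1.27), and DUSP1 (1.76) and CCN1 (1.14) lead with ML60218.

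The calls in the experiments were set side by side. Of the 41 genes tested in both, 8 were higher in both: IER2, KLF6, KLF10, KLF11, ZFP36L1, CCN2, HES1 and RHOB. Another 10 were higher after the siRNA and not called with ML60218, and 10 were higher with ML60218 and not called after the siRNA. The share of all genes with these patterns was not counted, so they cannot be read as particular to the list. SGK1 was called higher after the siRNA but lower with ML60218, BTG1, ID1 and ID2 were the reverse, SRF was lower in both, and IER5 was lower with ML60218 and not called after the siRNA. The remaining 7 were called in neither, whereas 70.6% of all genes were called in at least 1 experiment. Over all 15165 genes tested in both, 4.75% were higher in both, 7.52% lower in both and 13.9% called in opposite directions. The difference itself, the siRNA effect minus the ML60218 effect, was called for 28 of 42 genes (background 50.9%), 15 positive (35.7%, background 24.5%) and 13 negative (31%, background 26.4%). It was at least 1.5-fold for 11 of the positive calls (background 7.6%) and 8 of the negative (10.7%). Among the 42, SPRY4, KLF2 and DUSP8 had passed the filter of the siRNA experiment only through siPOLR3A. SPRY4 (1.73) and KLF2 (1.55) are counted among the 15 positive calls and the 11 of at least 1.5-fold, and DUSP8 was not called. The median difference was −0.03, beside −0.02 over all 15780 genes.

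**Figure D2:**
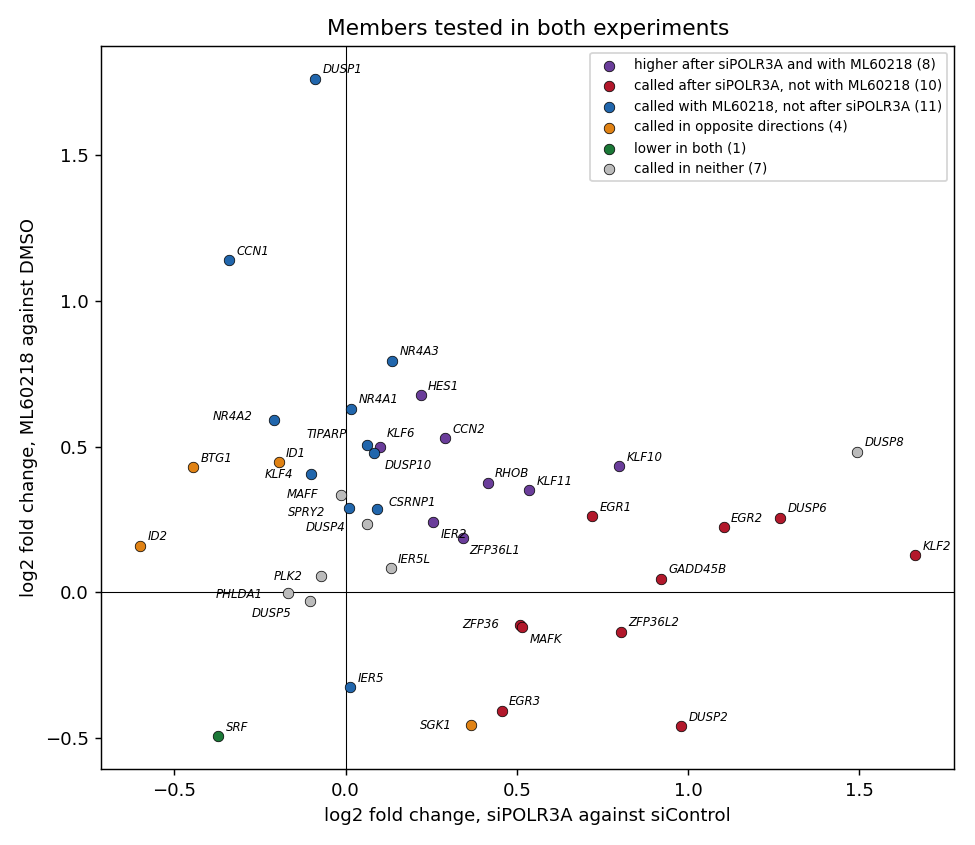
Log2 fold change after the siRNA (horizontal axis) against that with ML60218 (vertical axis) for the 41 genes tested in both experiments, coloured by where each was called. The EGR, DUSP2, DUSP6 and KLF2 points lie to the right near or below the middle, while DUSP1, CCN1 and the NR4A points lie high near the centre line.

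The zinc-finger EGR factors, the classical first wave of ERK signalling, were higher after the siRNA. EGR1 (chromosome 5, 138465490 to 138469315, GRCh38) stood at 5.03, 4.12 and 5.26 CPM (reads of a gene scaled by library size) in the siControl libraries and at 8.90, 6.49 and 8.36 in siPOLR3A. Every siPOLR3A library lay above every siControl library, with a log2 change of 0.72 (SE 0.13, adjusted p 0.000579). In the ML60218 experiment EGR1 stood at 3.77, 3.82 and 3.67 CPM in DMSO and at 5.37, 4.53 and 3.63 with the inhibitor, where replicate 3 lay below all DMSO libraries. That effect was 0.26 (SE 0.14, adjusted p 0.176) and was called without ML60218 replicate 3, at 0.40 (adjusted p 0.0329). The difference between the experiments was not called for EGR1 (0.46, SE 0.21, adjusted p 0.0751).

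EGR2 was a low gene, with 31 to 35 reads per siControl library. Its levels of 1.05, 0.862 and 0.804 CPM in siControl and 1.94, 1.62 and 2.27 in siPOLR3A did not overlap and gave a log2 change of 1.10 (SE 0.20, adjusted p 0.000257). In the other experiment it stood at 0.422, 0.385 and 0.400 CPM in DMSO and 0.521, 0.497 and 0.398 with ML60218, and these groups overlapped (0.22, SE 0.26, adjusted p 0.56). The difference of 0.89 (SE 0.30, adjusted p 0.0227) was called, but not without siControl replicate 3 (adjusted p 0.0519), siPOLR3A replicate 3 (0.0644) or ML60218 replicate 3 (0.0635), nor in DESeq2 (0.106) or TPM (0.0616). With an offset for isoform length it fell to 0.53 (adjusted p 0.35). EGR3 was also called higher after the siRNA, at 0.46 (SE 0.16, adjusted p 0.0275), and its difference was 0.87 (adjusted p 0.0166). Its siRNA call was lost without siControl replicate 1, siPOLR3A replicate 1 or siPOLR3A replicate 2, with adjusted p of 0.0949, 0.107 and 0.0525. With all libraries it was lost in DESeq2 (adjusted p 0.169) and with no filter on low counts (0.0569).

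Among the Krüppel-like factors, KLF2, a regulator of quiescence best known from endothelium and lymphocytes, had the largest estimate. It rested on few reads, 8, 9 and 16 in siControl and 38, 37 and 32 in siPOLR3A, and passed the filter on low counts only through the siPOLR3A libraries. With no filter its effect was 1.66 as well (adjusted p 2.07e-06). As CPM these were 0.239, 0.250 and 0.415 against 0.983, 1.00 and 0.932, a log2 change of 1.66 (SE 0.28, adjusted p 0.000152). With ML60218 it was 0.13 (SE 0.29, adjusted p 0.767), from 0.546, 0.565 and 0.305 CPM in DMSO to 0.439, 0.553 and 0.553. The difference was 1.55 (SE 0.41, adjusted p 0.00471) and was not called with an offset for isoform length (adjusted p 0.0958) or in TPM (adjusted p 0.0857).

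KLF10, a TGF-beta inducible repressor, was measured far more precisely and was higher in both experiments. Levels of 18.7, 20.0 and 18.9 CPM in siControl stood against 34.6, 32.9 and 32.7 in siPOLR3A (0.80, SE 0.05, adjusted p 6.43e-09). In the second experiment 18.7, 18.4 and 16.2 CPM in DMSO stood against 23.4, 23.9 and 24.6 with ML60218 (0.43, SE 0.06, adjusted p 0.000934). The groups were apart in each, and the siRNA effect was the larger, by 0.37 (SE 0.08, adjusted p 0.000954). In TPM that difference was 0.24 and was not called (adjusted p 0.105). Its close relative KLF11 was also higher in both, at 0.54 and 0.35. The difference for KLF11 (0.19, adjusted p 0.0384) was lost in DESeq2 (0.0556), under total count scaling (0.105), with an offset for isoform length (0.449) and without any of 7 single libraries (siControl 1 or 2, siPOLR3A 1 or 2, DMSO 1 or 2, ML60218 1), and it turned negative in TPM. KLF4, a pluripotency and epithelial factor, was called with ML60218 (0.41, adjusted p 0.00956) and not after the siRNA (−0.10, adjusted p 0.344), and the difference of −0.50 was called (adjusted p 0.00322). KLF6 had a small rise after the siRNA (0.10) and a larger one with ML60218 (0.50), and neither call held under all alternatives.

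The 3 NR4A genes encode orphan nuclear receptors induced by cyclic AMP, calcium and stress, and all were higher with ML60218 and not called after the siRNA. NR4A1 (chromosome 12, 52022832 to 52059507) stood at 8.93, 9.21 and 9.56 CPM in DMSO and at 14.1, 14.8 and 14.0 with ML60218, a log2 change of 0.63 (SE 0.07, adjusted p 0.000219). NR4A2 stood at 4.76, 4.43 and 5.01 CPM in DMSO and at 6.93, 7.13 and 7.34 with ML60218 (0.59, SE 0.09, adjusted p 0.00107). NR4A3 went from 4.19, 4.23 and 4.37 CPM to 6.39, 7.68 and 8.12 (0.80, SE 0.11, adjusted p 0.000615). Each group was tight and far from the other, by more than the spread within either.

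None of the 3 passed the test in edgeR after the siRNA. NR4A1 was at 13.2, 12.6 and 13.6 CPM in siControl and 13.6, 13.1 and 13.2 in siPOLR3A (0.02, SE 0.06, adjusted p 0.828). NR4A2 was at 6.55, 5.87 and 6.95 against 5.90, 5.62 and 5.24 CPM (−0.21, SE 0.10, adjusted p 0.0815), and without siControl replicate 2 it was called lower (−0.27, adjusted p 0.0422). NR4A3 was at 7.03, 7.37 and 7.18 against 8.56, 7.08 and 8.07 CPM (0.14, SE 0.09, adjusted p 0.204). In each gene the groups overlapped. The differences between the experiments were −0.61 for NR4A1 (SE 0.08, adjusted p 1.45e-05), −0.79 for NR4A2 (SE 0.13, adjusted p 8.63e-05) and −0.65 for NR4A3 (SE 0.14, adjusted p 0.000955). The DMSO libraries also held less of each NR4A mRNA than the siControl libraries, but those are the controls of separate experiments and were not tested against each other.

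SRF itself, the factor that binds CArG boxes, was the 1 gene of the list that was lower in both experiments. Its mean fell from 44.6 ± 1.71 (SD, n = 3) to 34.5 ± 1.03 CPM after the siRNA, a log2 change of −0.37 (SE 0.04, adjusted p 2.79e-06). With ML60218 it fell from 60.3 ± 0.498 to 42.9 ± 3.62 CPM, a log2 change of −0.49 (SE 0.06, adjusted p 0.00032). The groups did not overlap in either, and the effects did not differ beyond their error (0.13, SE 0.07, adjusted p 0.163). MAFK, a small MAF protein that lacks an activation domain, was higher after the siRNA (0.52, SE 0.05, adjusted p 1.48e-06) and not called with ML60218 (−0.12), with a called difference of 0.64 (adjusted p 2.16e-06). MAFF passed the test in neither, and with ML60218 it was called higher without ML60218 replicate 3 (0.45, adjusted p 0.0396).

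Of the dual-specificity phosphatases, DUSP2 and DUSP6 were called after the siRNA, DUSP1 and DUSP10 with ML60218, and DUSP4, DUSP5 and DUSP8 in neither experiment. DUSP6, which dephosphorylates ERK in the cytoplasm, stood at 0.509, 0.584 and 0.648 CPM in siControl and at 1.35, 1.57 and 1.31 in siPOLR3A. This was a log2 change of 1.27 (SE 0.21, adjusted p 0.000143), from 17 to 25 reads per siControl library. DUSP2, a nuclear phosphatase of ERK and p38, stood at 2.48, 2.56 and 2.77 against 5.30, 5.19 and 4.95 CPM, close to a doubling in every library (0.98, SE 0.11, adjusted p 4.22e-06). In both genes each siPOLR3A library lay above all siControl libraries.

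Neither of these phosphatases was called with ML60218. DUSP6 stood at 0.447, 0.679 and 0.517 CPM in DMSO and 0.822, 0.58 and 0.575 with ML60218 (0.26, SE 0.26, adjusted p 0.478). DUSP2 stood at 2.58, 1.95 and 2.54 in DMSO and 2.03, 1.69 and 1.44 with ML60218 (−0.46, SE 0.18, adjusted p 0.0667). The groups overlapped in both genes, and DUSP2 was called lower without DMSO replicate 2 (adjusted p 0.049) or without ML60218 replicate 1 (adjusted p 0.0315). The differences between the experiments were called, at 1.02 for DUSP6 (SE 0.32, adjusted p 0.0155) and 1.45 for DUSP2 (SE 0.20, adjusted p 2.18e-05). For DUSP6 the call was lost without DMSO replicate 2 (adjusted p 0.0542) and with an offset for isoform length (0.235). It was also lost in DESeq2 (adjusted p 0.0632) and in TPM (0.162).

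DUSP1, a nuclear phosphatase that acts mainly on p38 and JNK and whose promoter site is shown above, was the reverse and the largest change with ML60218 among these genes. It lies on chromosome 5, 172768090 to 172771195. The DMSO libraries stood at 18.6, 19.0 and 20.4 CPM and the ML60218 libraries at 42.7, 59.2 and 94.1. The groups were far apart, but the ML60218 libraries differed 2.2-fold among themselves, and the log2 change of 1.76 had an SE of 0.35 (adjusted p 0.02). The call was lost when any DMSO library was left out (adjusted p 0.0732 to 0.0802), although the estimate stayed between 1.40 and 1.99 under every alternative. After the siRNA DUSP1 stood at 41.4, 29.9 and 35.3 CPM in siControl and 36.8, 30.2 and 33.2 in siPOLR3A (−0.09, SE 0.15, adjusted p 0.658). The difference of −1.85 (SE 0.39, adjusted p 0.00374) was called.

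Of the other phosphatases, DUSP10, which acts on p38 and JNK, was called with ML60218 (0.48, SE 0.10, adjusted p 0.0041) and not after the siRNA (0.08, adjusted p 0.565). The difference for DUSP10 was not called (−0.39, SE 0.16, adjusted p 0.0508), though it was under 7 of 22 alternatives. DUSP8 had a large and uncertain siRNA effect of 1.49 (SE 0.66, adjusted p 0.108), since siControl replicate 1 held 31 reads and the other siControl libraries 6 and 9. Without that library it was 2.59 (adjusted p 8.26e-05). With all libraries it was called in DESeq2 (adjusted p 0.0192), limma voom (0.0178) and TPM (0.0457). With ML60218 DUSP8 was at 0.48 (SE 0.65, adjusted p 0.608), and at 1.37 without DMSO replicate 1 (adjusted p 0.0361).

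SPRY4, an inhibitor of receptor tyrosine kinase signalling, had the largest siRNA estimate of the list, on very few reads. It had 2, 3 and 3 reads in siControl and 23, 18 and 14 in siPOLR3A, or 0.0598, 0.0834 and 0.0778 against 0.595, 0.487 and 0.408 CPM. This was a log2 change of 2.70 (SE 0.43, adjusted p 0.000101), and the gene passed the filter only through the siPOLR3A libraries. With no filter the estimate was 2.69 (adjusted p 2.67e-06). With ML60218 it had 12, 4 and 8 reads, against 5, 3 and 5 in DMSO, and was not tested there. In the fit of all 12 libraries its difference was 1.73 (SE 0.69, adjusted p 0.0468), a call lost under 14 of 22 alternatives. SPRY2, the abundant relative, showed 0.01 after the siRNA (adjusted p 0.86) and 0.29 with ML60218 (SE 0.06, adjusted p 0.00577), with a called difference of −0.27 (adjusted p 0.0102).

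**Figure D3:**
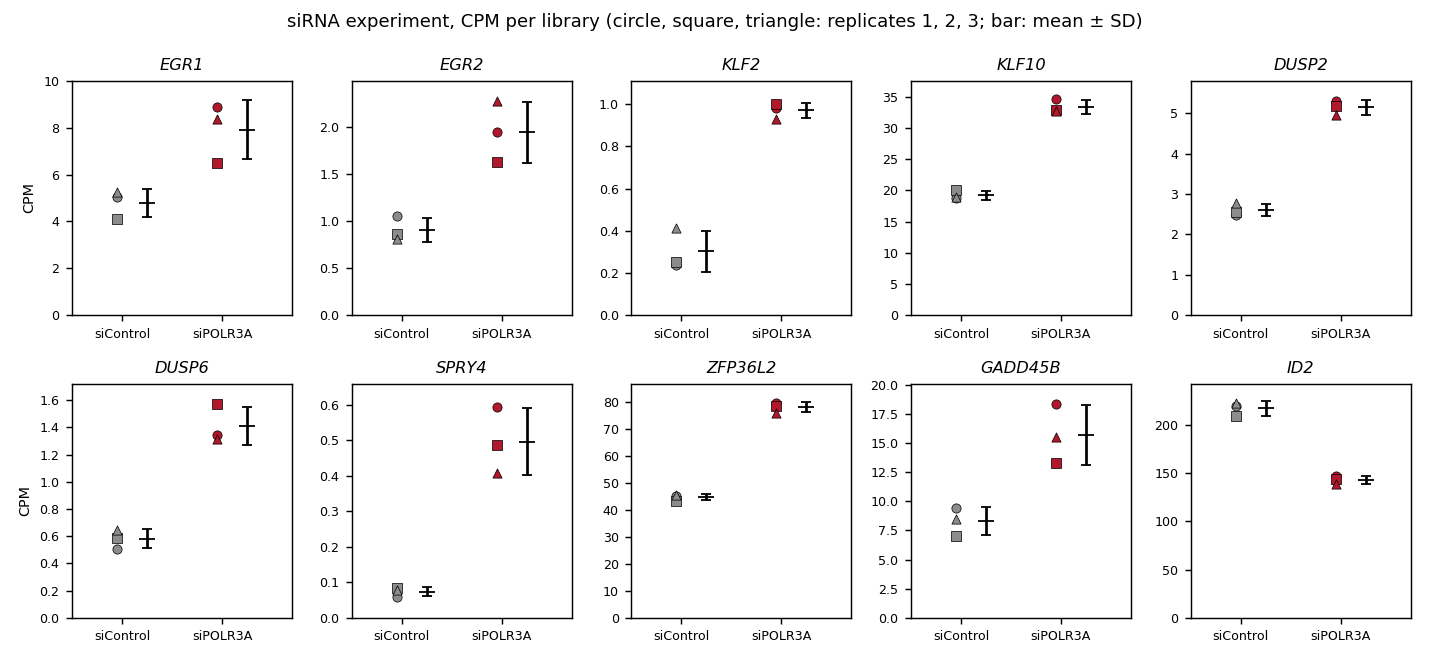
CPM (vertical axes, from 0) of the 10 genes that changed at least 1.5-fold after the siRNA in each siControl (grey) and siPOLR3A (red) library, with the mean and SD of 3 libraries beside the points. In every panel the groups are apart: the 9 genes from EGR1 to GADD45B are higher in siPOLR3A and ID2 is lower. The genes were chosen by their calls in these same libraries, which favours groups that are apart. SPRY4 and KLF2 passed the filter on low counts only through siPOLR3A.

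The ZFP36 proteins bind AU-rich elements and recruit the deadenylation machinery, and all 3 of their mRNAs were higher after the siRNA. ZFP36L2 (chromosome 2, 43222402 to 43226609) stood at 45.2, 43.3 and 45.5 CPM in siControl and at 79.6, 78.3 and 75.8 in siPOLR3A. The groups were separated by many times their spread, and the log2 change of 0.80 (SE 0.03, adjusted p 1.22e-10) was the best determined among the rises of the list. With ML60218 it was at 58.8, 59.6 and 57.1 CPM in DMSO and at 47.5, 54.5 and 57.6 with the inhibitor. These groups overlapped (−0.14, SE 0.06, adjusted p 0.129), it was called lower without ML60218 replicate 3 (−0.20, adjusted p 0.0325), and the difference of 0.94 (SE 0.08, adjusted p 9.27e-08) was called. ZFP36 followed at 0.51 after the siRNA (SE 0.14, adjusted p 0.006) and −0.11 with ML60218 (adjusted p 0.607). ZFP36L1 was higher in both, at 0.34 (adjusted p 2.71e-06) and 0.19 (adjusted p 0.0136), and its ML60218 call was lost without DMSO replicate 1 (adjusted p 0.0584) or 2 (adjusted p 0.0554).

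BTG1, an antiproliferative protein, was called in opposite directions. It stood at 16.8, 13.0 and 13.9 CPM in siControl and at 10.2, 10.8 and 11.04 in siPOLR3A (−0.44, SE 0.09, adjusted p 0.00106). In the other experiment it stood at 13.8, 12.9 and 12.1 CPM in DMSO and at 14.5, 16.4 and 21.3 with ML60218 (0.43, SE 0.14, adjusted p 0.0455). The groups did not overlap in either, and the difference was −0.87 (SE 0.19, adjusted p 0.00264). The ML60218 call was lost without any DMSO library (adjusted p 0.0799 to 0.14) or ML60218 replicate 2 (adjusted p 0.0725). A transcript beside BTG1 in the table, not matched to a gene, held 78.1% of the reads of the locus, and with it included the effects were −0.47 (adjusted p 5.55e-05) and 0.40 (adjusted p 0.0136).

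Among the secreted and YAP-responsive products, CCN1 (chromosome 1, 85580761 to 85583962) was higher with ML60218. It stood at 6.62, 7.40 and 8.79 CPM in DMSO and at 15.2, 16.1 and 18.9 with ML60218, with all treated libraries above all DMSO libraries (1.14, SE 0.12, adjusted p 0.000255). After the siRNA the values were 11.4, 9.04 and 12.3 CPM in siControl and 12.1, 5.84 and 7.87 in siPOLR3A, which overlapped (−0.34, SE 0.32, adjusted p 0.433). Without siPOLR3A replicate 1, the high library, CCN1 was called lower (−0.68, adjusted p 0.0288). The difference of −1.48 (SE 0.35, adjusted p 0.00612) was called. Unmatched neighbouring transcripts held 25.1% of the reads at CCN1, and with them the ML60218 effect was 0.99. CCN2 was higher with ML60218 (0.53, SE 0.12, adjusted p 0.00573). After the siRNA it was at 0.29 (SE 0.11, adjusted p 0.0342), a call that was lost when any of the 6 libraries was left out (adjusted p 0.0569 to 0.0919).

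HES1, the Notch-responsive repressor, was higher in both experiments and more so with ML60218. It stood at 56.2, 50.1 and 56.6 CPM in siControl and at 67.3, 60.4 and 62.0 in siPOLR3A (0.22, SE 0.06, adjusted p 0.00903). In DMSO it stood at 37.3, 35.5 and 35.8 CPM and with ML60218 at 52.7, 56.6 and 64.2 (0.68, SE 0.07, adjusted p 0.000221). The groups were apart in each, and the difference was −0.45 (SE 0.10, adjusted p 0.00222). The share of its reads on a form with a retained intron was 8.79% ± 0.506 (SD, n = 3) in DMSO and 6.76% ± 0.833 with ML60218, beside 7.45% ± 0.703 in siControl and 7.17% ± 0.116 in siPOLR3A. These shares were not tested.

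The ID genes encode inhibitors of basic helix-loop-helix factors and are among the most sensitive targets of BMP signalling, and both measured members went down after the siRNA and up with ML60218. ID2 (chromosome 2, 8678845 to 8684453) stood at 219, 208.5 and 223 CPM in siControl and at 146, 144 and 139 in siPOLR3A, the largest called fall of the list (−0.60, SE 0.03, adjusted p 8.46e-10). With ML60218 it stood at 119, 120.2 and 132 CPM against 114, 106 and 112 in DMSO (0.16, SE 0.05, adjusted p 0.0216), groups that were apart by a small margin. That call was lost without DMSO replicate 2 (adjusted p 0.108) or 3 (adjusted p 0.056). The difference was −0.75 (SE 0.06, adjusted p 4.72e-08).

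ID1 stood at 11.1, 11.6 and 10.6 CPM in siControl and at 10.2, 9.38 and 9.38 in siPOLR3A (−0.19, SE 0.07, adjusted p 0.0271). With ML60218 it stood at 11.1, 10.6 and 10.9 CPM against 8.14, 6.99 and 8.84 in DMSO (0.45, SE 0.09, adjusted p 0.00456). The groups were apart in each, and the difference was −0.64 (SE 0.12, adjusted p 0.000256). The siRNA call for ID1 was lost under upper quartile and total count scaling, in DESeq2 and without 4 of the 6 libraries in turn (siControl replicates 1 and 2, siPOLR3A replicates 2 and 3), with adjusted p up to 0.16.

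SGK1, a kinase induced by serum and glucocorticoids, had the opposite pattern to the ID genes. It stood at 6.13, 7.01 and 6.66 CPM in siControl and at 8.44, 8.11 and 9.0 in siPOLR3A (0.37, SE 0.08, adjusted p 0.00196). With ML60218 it stood at 5.73, 5.25 and 4.33 CPM against 6.92, 7.21 and 6.81 in DMSO (−0.46, SE 0.11, adjusted p 0.0101). The groups did not overlap in either, and the difference was 0.83 (SE 0.14, adjusted p 0.000119). The ML60218 call was lost with an offset for isoform length (adjusted p 0.107) and in TPM (adjusted p 0.281).

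GADD45B, a stress sensor upstream of p38 and JNK, was higher after the siRNA, at 9.46, 7.01 and 8.48 CPM in siControl and 18.4, 13.2 and 15.6 in siPOLR3A. This was a log2 change of 0.92 (SE 0.16, adjusted p 0.00362). With ML60218 it stood at 9.76, 9.17 and 10.2 CPM against 9.60, 9.11 and 9.45 in DMSO (0.05, SE 0.07, adjusted p 0.649), and the difference of 0.88 (SE 0.16, adjusted p 0.000413) was called. RHOB, a small GTPase of endosomes, was higher in both, at 0.42 (adjusted p 7.41e-05) and 0.38 (adjusted p 0.0343), and its ML60218 call was lost without any DMSO library or ML60218 replicate 2 (adjusted p 0.076 to 0.102). IER2, a small nuclear protein, was higher in both by nearly the same amount, 0.26 (adjusted p 0.000149) and 0.24 (adjusted p 0.0056). IER5, which modulates heat shock factor HSF1, was lower with ML60218 (−0.32, SE 0.04, adjusted p 0.000534, but 0.0594 in TPM) and at 0.01 after the siRNA (adjusted p 0.727). TIPARP, an ADP-ribosyltransferase of the aryl hydrocarbon response, was higher with ML60218 (0.51, adjusted p 0.00811). CSRNP1 was called there too (0.28, adjusted p 0.0304), but not without DMSO replicate 1 or 3 or ML60218 replicate 2 or 3 (adjusted p 0.0741 to 0.111). Its difference between the experiments was not called (−0.19, adjusted p 0.347). PLK2, PHLDA1 and IER5L were called in neither experiment.

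**Figure D4:**
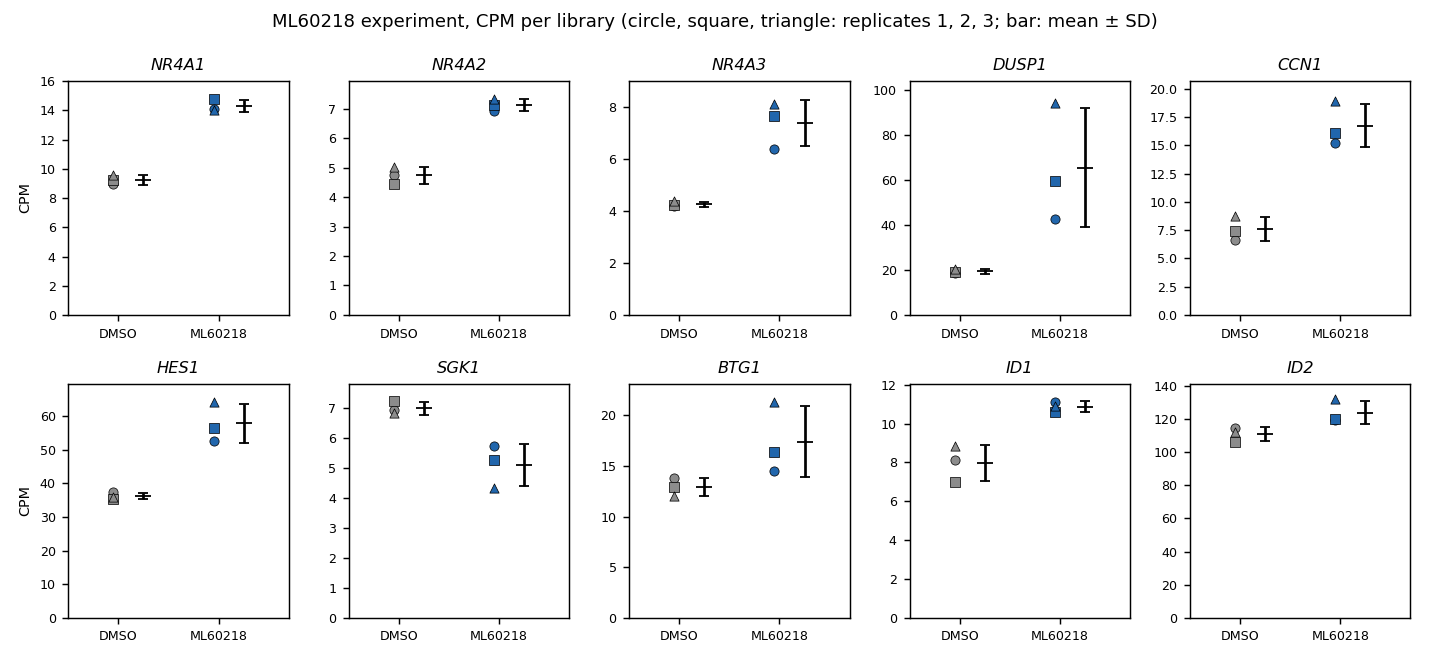
CPM (vertical axes, from 0) of the 6 genes that rose at least 1.5-fold with ML60218 and of the 4 called in opposite directions in the experiments, in each DMSO (grey) and ML60218 (blue) library, with the mean and SD of 3 libraries beside the points. DUSP1 spreads from 42.7 to 94.1 CPM with ML60218, while NR4A1 stays between 14.0 and 14.8.

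The ML60218 libraries differed among themselves. Of the 21 genes called higher, 17 had their highest level in ML60218 replicate 3, 2 in replicate 1 and 2 in replicate 2. Their median log2 ratios to the DMSO mean were 0.30, 0.43 and 0.60 in replicates 1, 2 and 3. Over all 2800 genes called higher, 68.6% were highest in replicate 3, with median ratios of 0.26, 0.30 and 0.39. Without replicate 3 the number of listed genes called higher was 21, and without replicate 1 it was also 21. The genes were not all the same without replicate 3. There KLF6 (adjusted p 0.0601) and CSRNP1 (0.0916) lost their calls, and EGR1 (0.0329) and MAFF (0.0396) gained one. EGR1 and DUSP6 were instead highest in replicate 1.

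Levels between genes are compared per length, in TPM. ID2 was the most abundant of the genes in both controls, at 283 ± 16.1 TPM in siControl and 146 ± 6.42 in DMSO (SD, n = 3). HES1 (60.2 ± 6.04) and RHOB (51.1 ± 5.27) followed in siControl, with ranges that touched between 53.4 and 54.7 TPM. DUSP1 (31.6 ± 6.02) and IER2 (29.3 ± 1.95) came next and overlapped. In DMSO the order was RHOB (62.7 ± 2.43), HES1 (41.3 ± 1.82) and ZFP36L2 (31.7 ± 1.27), each apart from the next. The 5 tested genes with the largest siRNA effects had the 5 lowest mean siControl levels among the tested genes: SPRY4 at 0.0205, DUSP8 (not called) at 0.198, KLF2 at 0.355, DUSP6 at 0.418 and EGR2 at 0.550 TPM. The range of DUSP6 overlapped those of KLF2 and EGR2, which did not overlap each other. That of DUSP8 overlapped those of KLF2 and DUSP6, and that of EGR2 also overlapped that of EGR3 (mean 0.589). The siControl level is also the base of the siRNA effect, so for all 5 the rankings are not independent. SPRY4, DUSP8 and KLF2 passed the filter on low counts only through the siPOLR3A libraries. For them a low siControl level beside a large rise was therefore partly set by the filter as well, and the ordering was not tested.

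Sequence features were read from the main coding transcript in GENCODE 29 for 42 genes of the list and for all 14043 protein-coding genes tested. The median number of exons was 4, beside 9 over all genes, and the median 3′ untranslated region was 1234 bases long, beside 1060. ATTTA, the core of an AU-rich element, was present there in 90.5%, beside 69.2%, and the longer TATTTAT, which contains it and is bound by ZFP36 proteins, in 59.5%, beside 32.3%. Presence depends on the length of the region. Per kilobase ATTTA was nearly as frequent in the listed genes (2.45) as in all genes (2.29), and TATTTAT was at 0.763, beside 0.332. The densest runs are shown with overlapping ATTTA copies in capitals, since both genes were called with ML60218, in opposite directions.
IER5: tcctttATTTATTTATTTATTTAattataa
TIPARP: aggattctATTTATTTATTTAcgtttgata

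TATTTAT was in 45% of the 20 genes higher after the siRNA, in 3 of the 4 lower and in 72.2% of the 18 not called, beside 29.7%, 38.4% and 29.9% of all genes in those classes. With ML60218 it was in 57.1% of the 21 higher genes, in 3 of 3 lower and in 58.8% of the 17 not called, beside 43%, 26% and 31.5% of all genes in those classes. The hexamer GAGGGA was counted in the same regions with earlier results of these data known. Of all protein-coding genes, 43.3% of those called lower after the siRNA, 30.6% of those called higher and 31.3% of those not called held it. The median region was 1324, 1042 and 898 bases long in those classes, and presence depends on this length. Of 282 genes lower by at least 2-fold, a size that 0 listed genes reached, 67.7% held it, with a median region of 1294 bases. The hexamer was in 7 of the 20 listed genes called higher (35%) and in 3 of the 4 called lower, with 4 copies in SRF, 1 each in BTG1 and ID1 and 0 in ID2. Whether it bears on these levels was not tested.

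Other genes of the pathway were examined as lists of named genes, and those named are the called genes with the largest changes. The shares of each list are to be read beside those of all genes tested. After the siRNA 27.4% of all genes were called higher and 29.2% lower, and with ML60218 18.1% and 20.9%. Of 33 genes of the ERK pathway and other MAP kinases, 15 were higher (45.5%) and 16 lower (48.5%) after the siRNA. With ML60218 3 were higher (9.09%) and 11 lower (33.3%). The largest siRNA changes were in the GTPase HRAS (−1.67, adjusted p 5.4e-09), the p38 kinase MAPK11 (1.56, adjusted p 4.96e-09) and the receptor FGFR4 (1.11, adjusted p 7.91e-10). With ML60218 they were in MAP2K3 (−0.64), an activator of p38, the receptor EGFR (0.39) and MAP2K4 (−0.32), an activator of JNK.

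ERK feedback and output genes outside the list were higher after the siRNA in 8 of 15 (53.3%), with 1 lower (6.67%) and a median of 0.35. With ML60218 5 of 14 were higher (35.7%) and 3 lower (21.4%), with a median of 0.06. The ETS factors ETV4 (1.64, adjusted p 6.92e-06), ETV5 (1.32, adjusted p 5.9e-06) and ETV1 (1.01, adjusted p 1.38e-06), which follow ERK activity in many cells, led the siRNA rises. With ML60218 ETV4 (1.09, adjusted p 0.0274) and MYC (0.74, adjusted p 0.0168) were higher and CCND1 was lower (−0.55, adjusted p 0.00158). Of 28 transcription factors that drive early genes, 13 were higher (46.4%) and 6 lower (21.4%) after the siRNA. The YAP relative WWTR1 (1.37), the receptor NOTCH1 (0.88) and ELK3 (0.63) led. With ML60218 5 were higher (17.9%) and 3 lower (10.7%), led by SMAD1 (0.34), ELK1 (−0.30) and ELK3 (−0.29).

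The AP-1 genes, the other arm of the early response, were called higher in 3 of 9 (33.3%) and lower in 1 (11.1%) after the siRNA. With ML60218 they were higher in 6 of 9 (66.7%). The medians were 0.09 and 0.87. JUN (−0.76), JUNB (0.68) and FOSL1 (0.44) led after the siRNA, and ATF3 (2.28), JUN (1.60) and FOS (1.29) with ML60218. Output genes of YAP and TEAD and of TGF-beta and BMP were higher in 3 of 15 (20%) and lower in 7 (46.7%) after the siRNA. With ML60218 they were higher in 6 of 15 (40%) and lower in 1 (6.67%). The BMP-responsive ID4 fell after the siRNA (−0.49, adjusted p 5.15e-08) and rose with ML60218 (0.70, adjusted p 0.0301), the same directions as ID1 and ID2. CRIM1 (−0.81) and AXL (0.63) also led after the siRNA, and ANKRD1 (0.66) and SKIL (0.60) with ML60218.

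Relatives of the listed genes in the same families were higher in 13 of 45 (28.9%) after the siRNA and lower in 15 (33.3%), with a median of 0.01. These shares were near the 27.4% and 29.2% of all genes. With ML60218 14 were higher (31.1%) and 9 lower (20%), with a median of 0.05. CCN6 (−1.64), HES5 (−0.92) and CCN3 (0.87) had the largest siRNA changes, and CSRNP3 (3.46, SE 0.73), GADD45A (0.76) and HEY2 (0.75) the largest with ML60218. Of 16 factors of mRNA decay through AU-rich elements, 3 were higher (18.8%) and 10 lower (62.5%) after the siRNA. With ML60218 2 were higher (12.5%) and 7 lower (43.8%). The deadenylase subunits CNOT7 (0.63), CNOT6 (−0.55) and CNOT8 (−0.39) had the largest siRNA changes. The exonuclease XRN1 (0.31), the decapping enzyme DCP2 (−0.25) and CNOT3 (−0.19) had the largest with ML60218.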

How the data were processed

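RNA sequencing libraries of HEK293T cells were compared in 2 experiments of 6 libraries each. The authors deposited, for 194142 transcripts, estimated counts and TPM, per the file headers in the form the program salmon writes. Per the submitters' processing notes, bcl2fastq 2.20, Trim Galore, DESeq2 and hg38 were used, and the quantifier's version and annotation are not given in the sources used here. Transcripts were matched by stable identifier to GENCODE 29 (158359, 81.6%), and the unmatched ones, with 8.37% to 8.97% of a library's reads, stayed out. A table of counts per gene had been assumed, so the estimated counts of a gene's transcripts were added up and rounded.

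For each comparison its 6 libraries were fitted in edgeR 4.0.16 under R 4.3.3 (filterByExpr with a minimum count of 10, TMM scaling, robust two-sided quasi-likelihood test, Benjamini-Hochberg adjustment over all genes), and the difference between the experiments on all 12. The SE is the log2 fold change over the square root of F, and CPM use TMM factors. An exact permutation test of 3 against 3 libraries cannot go below p = 0.1. The code was tested on simulated data. Alternatives used DESeq2 1.42.0, limma 3.58.1 and log2(TPM + 1), among others.

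The genes and lists were chosen with earlier results of these data known. Values in every library are given for listed genes called with a change of at least 1.5-fold (0.58 on the log2 scale) and for those called in opposite directions, and, from each other list, for at most 3 called genes with the largest changes the log2 fold change. Further genes of the list were named with values after these had been seen.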

Additional observations from a re-analysis of the deposited data

How the results depend on the processing

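Of the 24 calls after the siRNA, 20 held under all 16 alternatives (10 with all libraries and 6 that each left out 1 library). With ML60218 15 of 24 did, and for the difference, with 22 alternatives, 19 of 28. The calls lost after the siRNA were those of EGR3, KLF6, CCN2 and ID1. With 1 library left out, 17 to 19 genes were higher and 3 to 5 lower after the siRNA, 15 to 21 higher and 3 to 5 lower with ML60218 (5 without ML60218 replicate 1), and 11 to 14 positive and 12 to 14 negative for the difference. On log2(TPM + 1), which shrinks low genes, 1 gene was lower with ML60218 in place of 3, and 8 differences were positive in place of 15. There the median of all genes with ML60218 moved to 0.11, beside 0.29 over the listed genes, and the difference for KLF11 turned from 0.19 to −0.0393 (adjusted p 0.806). The cause was not tested.

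Replicate numbers are shared between groups, but same-numbered libraries did not deviate together (correlations from −0.206 to 0.0672). With 3 libraries per group such correlations cannot show whether same-numbered libraries shared a culture or a day. With the replicate number as a block, 20 genes were higher and 4 lower after the siRNA, 20 higher and 3 lower with ML60218, and 15 positive and 13 negative for the difference. Under the block CCN2 lost its call after the siRNA (adjusted p 0.0605) and DUSP8 gained one (0.00134), BTG1 lost its call with ML60218 (0.0962), and for the difference KLF6 (0.072) and SPRY4 (0.0503) lost theirs while EGR1 (0.0293) and DUSP10 (0.0394) gained one. Depth limits SPRY4, KLF2, DUSP6 and EGR2, whose values rest on few reads in the control libraries.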
